A study of Mus musculus with 6 samples.

Results

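G protein-coupled receptors and the G proteins behind them were described in mouse germinal vesicle (GV) oocytes, which have not resumed meiosis. The genes were taken by symbol from the authors' deposited table: Gpr followed by a digit, Vmn, Olfr, Adr, Htr, P2ry, S1pr, Lpar, Ptger, Lphn, Lgr followed by a digit, Fzd, Gna, Gnb followed by a digit, Gng followed by a digit and Rgs followed by a digit, leaving out Gpr3 and Gnas. This rule took 94 of the 10896 genes of the table, among them 26 Gpr, 13 Olfr, 10 Gna and 9 Rgs genes and 0 P2ry genes. It also took 7 genes that share a prefix but are neither receptor nor G protein subunit by name, and these are given apart. RNA was sequenced in 3 samples of oocytes grown in vitro and 3 samples of oocytes grown in vivo, each of 50 oocytes, from (C57BL x CBA) F1 females. The in vitro oocytes grew inside follicles isolated with collagenase from the ovaries of 2 to 5 females aged 10 to 12 days, so that animals were pooled, and kept on membrane inserts in MEM-alpha medium supplemented with fetal bovine serum, an insulin-transferrin-selenium mix and follicle stimulating hormone (FSH). The in vivo oocytes were released by needle from the ovaries of females 7 to 11 weeks old into M2 medium with dbcAMP, a cell-permeable analogue of cyclic AMP. Culture, donor age and the collection medium differ together between the groups, so their parts in any difference cannot be told apart.

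A receptor of this family binds a ligand outside the cell and makes a G protein alpha subunit exchange its nucleotide, after which alpha and the beta-gamma pair act on enzymes such as adenylyl cyclase and phospholipase C. RGS proteins speed up the return of alpha subunits to the resting state. In mouse oocytes, signalling through the stimulatory alpha subunit keeps cyclic AMP high, and this holds the oocyte in meiotic arrest until the ovulatory signal.

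For every gene the authors listed a mean of normalised reads in each group, and a PPEE. By the usual meaning of that term, the PPEE is taken here for the posterior probability of equal expression, so that low values mark a difference. Genes with a PPEE under 0.05 in the authors' deposited table count as called. For genes with low means, the whole reads of each library could be recovered from the digits of the means. This gave values per library for 56 of the 94 genes, while 31 had a mean over the limit of 200 and 7 were within it but had no solution. These reads were tested with limma voom over the 5802 genes recovered in both groups, and a gene was called at a Benjamini-Hochberg adjusted p below 0.05. The libraries are named A, B and C in order of depth within a group, because they cannot be matched to the labels' replicate numbers, and A of one group is no partner of A of the other. They held between 288486 and 431514 reads in the recovered genes. The labels do not say whether the samples came from separate cultures or animals, so the p-values measure only the spread between these samples.

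All 12 of the oocyte markers examined were in the table, with summed means of 117195 in vitro and 153345 in vivo, and 0 of them were called higher and 2 lower in the authors' deposited table. Of 15 granulosa and cumulus markers 8 were in it. Of these, 3 (Inhba, Inha and Fshr) were called higher in the authors' deposited table and 0 lower, beside 6.75% and 8.31% of all genes. No gene of the table has a larger mean below 6.74. Inhba and Fshr, at 2.69 and 2.45 in vivo, could therefore be listed only through their in vitro means. The same holds for Hsd17b1, which was not called, with means of 13.0 in vitro and 2.85 in vivo. Kitl and Nr5a2 had lower means in vitro than in vivo and were not called. The normalised reads of the 7 granulosa markers with recovered reads summed to 385, 510 and 422 in the in vitro libraries A, B and C, against 269, 262 and 267 in the in vivo libraries. These sums include Inhba, Fshr and Hsd17b1, so they rest in part on that selection and are a description. Serpine2, the most abundant of the 8, has no recovered reads and had means of 5350 in vitro and 5169 in vivo. None of the 8 had a group mean of 0. Of 10 theca and stroma markers 1 was in the table, of 5 blood and immune markers 1, and of 2 endothelial markers 1. The endothelial one, Pecam1, was called lower with means of 561 in vitro and 849 in vivo and a PPEE of 0.00378 listed in the authors' deposited table, while the theca and the blood marker were not called. In bulk samples such as these, fewer cells of a type and less RNA per cell cannot be told apart, and the part of RNA from other ovarian cells in the results below was not tested.

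The share of these genes that was called depended on the measure, and the calls went both ways. By the PPEE in the authors' deposited table, 3 of the 94 genes were called higher in vitro (Gng3, Htr5a and Ptger4), where 6.75% of all genes were. Another 6 were called lower by the same table (Rgs19, Lphn2, Gpr158, Vmn1r65, Vmn1r132 and Olfr976), where 8.31% of all genes were. In both directions together this made 9.57% of the 94 genes, beside 15.1% of all genes. The median change of the 94 genes, as log2 of the in vitro over the in vivo mean, was -0.11, beside 0.02 over all genes of the table. By size alone, 16 of the 94 genes (17.0%) had means at least 2-fold apart, 6 of them higher and 10 lower in vitro, beside 10.5% of all genes. Among the 56 genes with recovered reads, limma voom called 1 higher (Htr5b), where 3.48% of the 5802 genes were, and 5 lower (Rgs19, Lphn2, Lphn3, Lpar1 and Gng4), where 2.84% were. In both directions together, limma voom called 10.7% of the 56 genes. At an unadjusted p below 0.05 by limma voom there were 8 higher and 10 lower. The share of the 5802 genes at that cut is not given here, so nothing is drawn from these 2 counts. The counts at the adjusted p turned on single libraries. Without in vitro library A limma voom called 6 higher and 5 lower, and without in vitro library B it called 1 and 1. Without in vitro library C or in vivo library A the counts were 0 and 0. They were 0 and 1 without in vivo library B, and 0 and 2 without in vivo library C. The library values of the groups did not overlap for 6 genes that were higher in vitro, beside 16.3% of all recovered genes, and for 12 that were lower, beside 14.0%. Together these were 32.1% of the 56 genes. The table holds no gene whose larger mean is below 6.74 normalised reads, so a gene that is low in one group could be listed only through the other, and no count over these genes is given as support for a difference.

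Between receptors and their transducers the medians lay on opposite sides of 0. The 58 genes that are receptors by name had a median log2 change of -0.30. Of these, 42 had a lower in vitro mean, as had 5330 of the 10896 genes of the table. The medians of the alpha, beta and gamma subunits were 0.27 over 10 genes, 0.28 over 4 genes and 0.31 over 6 genes, and that of the RGS genes was 0.08 over 9 genes. Among receptors, the lowest medians were those of the latrophilins, -1.91 over 2 genes, and of the lysophospholipid and prostaglandin receptors, -0.69 over 4 genes. Of these genes, Lphn3 and S1pr2 could be listed only through their in vivo means and Ptger4 only through its in vitro mean. The medians by role are therefore a description. Chemosensory receptors had a median of -0.55 over 17 genes, Gpr genes -0.23 over 26, amine receptors 0.14 over 5 and frizzleds 0.27 over 2.

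**Figure D1:**
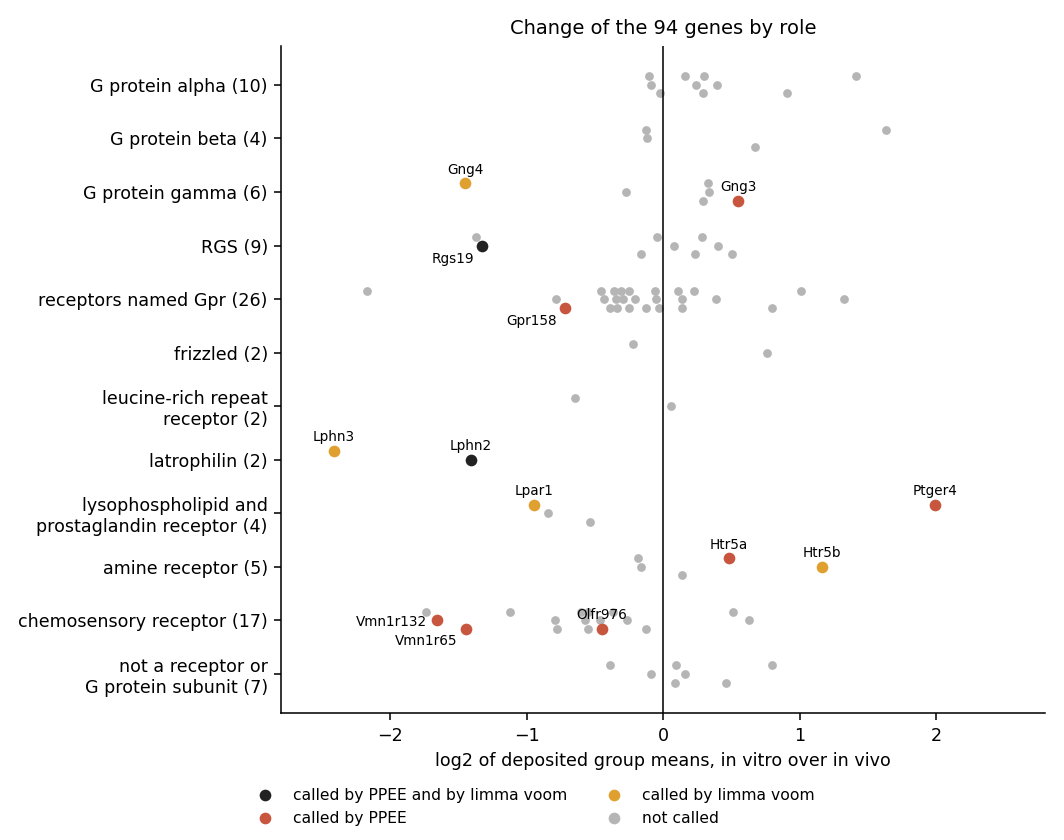
Log2 of the authors' in vitro mean over the in vivo mean (x axis, with the pseudocount of the deposited ratio) for each of the 94 genes, in rows by role, coloured by which measure called it. The points of the G protein subunits lie on both sides of 0, while 15 of the 17 chemosensory receptors lie to the left of it.

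Per kb of gene length, the most abundant transducers were Rgs2 with means of 862 in vitro and 653 in vivo, Gnb4 with 548 in vitro and 599 in vivo, Gng3 with 423 in vitro and 289 in vivo and Gnai3 with 395 in vitro and 424 in vivo. Rgs2, Gnb4 and Gnai3 each stood far above the next gene of their kind, while among the gamma subunits Gng12 followed Gng3 with 258 normalised reads per kb in vitro and 312 in vivo. Among receptors Gpr1, which binds chemerin, stood highest with 1155 per kb in vitro and 1048 in vivo. It was followed by the olfactory receptor Olfr976 with 597 per kb in vitro and 816 in vivo, the adhesion receptor Gpr56 with 279 in vitro and 305 in vivo, and Olfr288 with 242 in vitro and 291 in vivo. The summed levels per kb of all 58 receptors were 4429 in vitro and 4991 in vivo. 

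**Figure D2:**
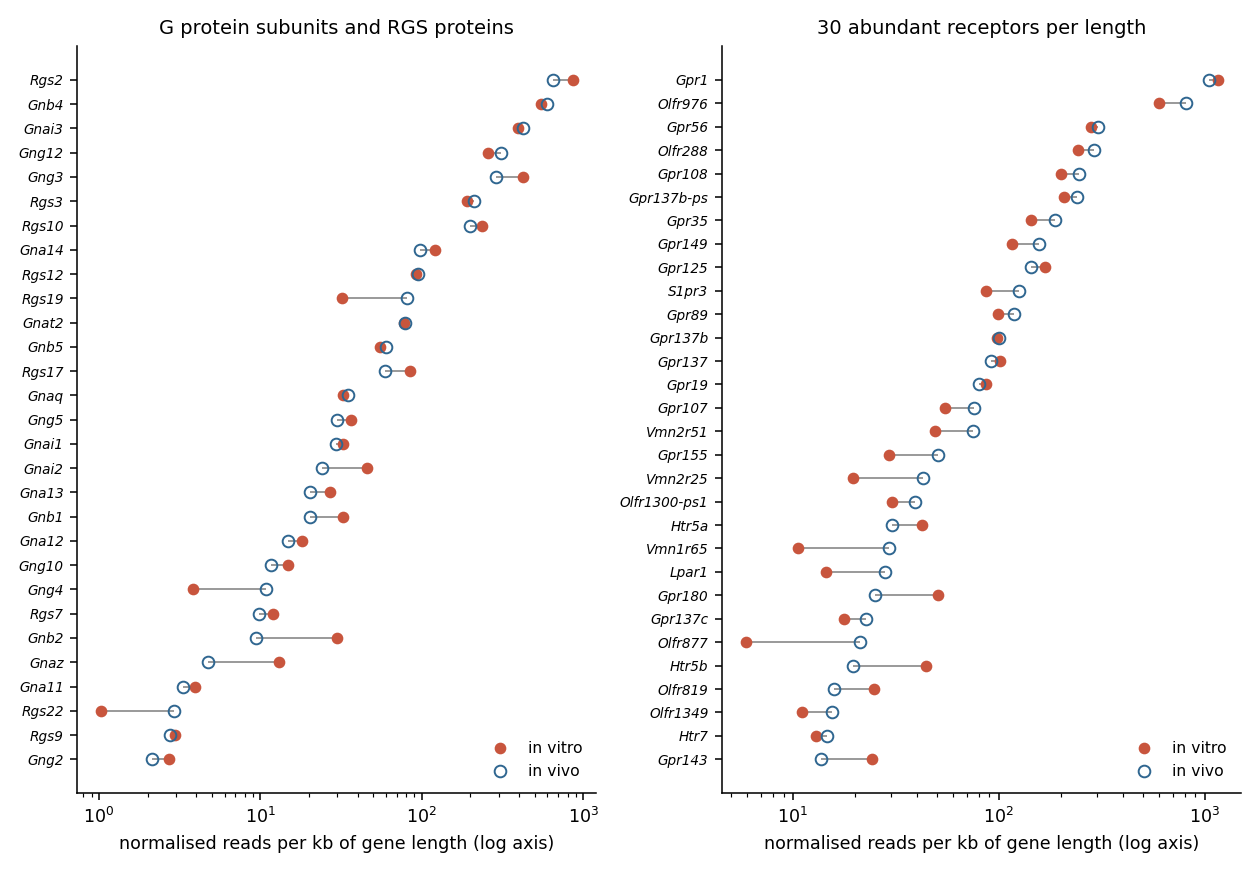
The authors' group means divided by gene length in kb (x axis, log scale) for the G protein subunits and RGS genes (left) and 30 of the receptors with the highest levels per length averaged over both groups (right), in order of the in vivo level, with in vitro as filled and in vivo as open points. Most pairs of points lie close together, and Rgs19, Gng4, Gnb2 and Olfr877 are among those that lie apart.

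Alpha subunits choose the enzyme that a receptor reaches, and 0 of the 10 measured here were called by PPEE in the authors' deposited table, nor were the 8 with recovered reads called by limma voom. Gnai3, an inhibitory subunit, carried most of the class Gi, Gz and Gt, whose levels per kb summed to 563 in vitro and 561 in vivo over 5 genes. The class Gq, which activates phospholipase C beta, summed to 157 in vitro and 136 in vivo over Gnaq, Gna11 and Gna14. The class G12 summed to 45.0 in vitro and 35.1 in vivo over Gna12 and Gna13. Gna14, the most abundant of the class Gq, had means of 408 in vitro and 331 in vivo and a PPEE of 0.0882 listed in the authors' deposited table, close to the threshold. Gnaq had 140, 216 and 196 normalised reads in the in vitro libraries A, B and C, against 237, 208 and 141 in the in vivo libraries. The groups overlapped, with the highest library in vivo. Gnat2, the alpha subunit of cone photoreceptor transducin, had 139, 116 and 128 normalised reads in vitro, against 140, 123 and 125 in vivo, and was among the least changed genes (log2 change -0.02, SE 0.20, adjusted p = 0.953 by limma voom).

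The alpha subunit with the largest difference in means was Gnaz, a member of the inhibitory class that is insensitive to pertussis toxin. It had 6.43, 37.3 and 52.1 normalised reads in the in vitro libraries A, B and C, against 13.7, 9.74 and 11.3 in the in vivo libraries. In vitro library A lay below every in vivo library and in vitro libraries B and C lay above them all. Its change was not past the threshold (log2 change 0.89, SE 0.66, adjusted p = 0.404 by limma voom), and without in vitro library A it was 1.87 with an adjusted p of 0.00466 by limma voom. Gnai2, another inhibitory subunit, had 73.5, 149 and 74.4 normalised reads in vitro, against 55.0, 62.0 and 40.7 in vivo. All in vitro values were above all in vivo values, but the adjusted p was 0.106 by limma voom, with a log2 change of 0.83 (SE 0.31).

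Beta subunits anchor the gamma chain, and 0 of the 4 were called by PPEE in the authors' deposited table, nor were the 3 with recovered reads called by limma voom. Gnb4, which held most of their reads, had means of 1508 in vitro and 1647 in vivo and a PPEE of 0.654 listed in the authors' deposited table. Gnb5, which in the retina and brain pairs with RGS proteins of the Rgs7 group, had 102, 137 and 129 normalised reads in vitro, against 133, 156 and 111 in vivo, and the groups overlapped. Gnb1 had 89.1, 135 and 76.9 in vitro, against 63.1, 79.7 and 45.2 in vivo, also with overlap. Gnb2 showed the largest difference of the beta subunits: 23.9, 74.6 and 43.4 normalised reads in the in vitro libraries A, B and C, against 21.8, 11.5 and 11.3 in the in vivo libraries. The groups did not overlap, yet the lowest in vitro and the highest in vivo library were close, and the change missed the threshold (log2 change 1.49, SE 0.48, adjusted p = 0.0669 by limma voom). Without in vitro library A the adjusted p of Gnb2 was 0.0026 by limma voom. The exons of Gnb2 overlap those of Epo on the same strand in the GENCODE M21 annotation, so reads could not be told apart there.

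Among the gamma subunits, which carry the lipid anchor of the beta-gamma pair, Gng3 rose and Gng4 was lower, each by a different measure. Gng3, best known from neurons, had means of 719 in vitro and 492 in vivo, a 1.46-fold higher level in vitro, and the authors' deposited table lists a PPEE of 0.000770. Its means were over the limit for recovered reads. Of its 50-base stretches, 21.9% also occur in Bscl2, which overlaps it on the opposite strand, and the sources used here do not say whether counting used strand. Gng4 had 6.43, 11.4 and 16.1 normalised reads in the in vitro libraries, against 34.8, 35.4 and 26.0 in the in vivo libraries, from 7, 11 and 13 whole reads against 43, 40 and 23. All in vitro values were below all in vivo values, and Gng4 fell in vitro (log2 change -1.62, SE 0.45, adjusted p = 0.0468 by limma voom), although its PPEE was listed at 1 in the authors' deposited table. Leaving out any single library raised the adjusted p of Gng4 to between 0.0575 and 0.14 by limma voom. Gng12 had means of 1092 in vitro and 1316 in vivo, with a PPEE of 0.116 listed in the authors' deposited table. The remaining gamma subunits Gng2, Gng5 and Gng10 had means between 8.10 and 19.6 normalised reads, and their libraries overlapped between the groups.

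Among the 56 genes with recovered reads, Rgs19 had the lowest adjusted p. It speeds up the inactivation of the inhibitory and the Gq alpha subunits. Rgs19 had 55.1, 40.4 and 44.7 normalised reads in the in vitro libraries A, B and C, against 125, 111 and 119 in the in vivo libraries, from 60, 39 and 36 whole reads against 155, 125 and 105. All in vitro values lay far below all in vivo values, and the libraries of a group were close together. Rgs19 averaged 46.7 ± 7.57 in the in vitro libraries and 118 ± 7.31 in the in vivo libraries (SD, n = 3 each), and it fell in vitro by 1.33 on the log2 scale (SE 0.25, adjusted p = 0.0095 by limma voom). Its PPEE was 0.0105 in the authors' deposited table, so that it was not called at a PPEE below 0.01, and 0% of its 50-base stretches occurred in another gene. Its limma voom call was kept in 8 of 10 alternative settings, among them the fit without a filter on low reads, which repeated the main fit. The call was lost without in vitro library C (adjusted p = 0.0691 by limma voom) and without in vivo library A (adjusted p = 0.0558 by limma voom).

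The promoter of Rgs19 is shown because it belongs to the gene with the lowest adjusted p by limma voom. It covers the 250 bases before the annotated start at chr2:181693978-181694227 on the minus strand of build GRCm38.p6, from RefSeq, and is written 5′ to 3′ along the gene. Capitals mark a GC box, searched as GGGCGG on both strands, a motif that 58.0% of the 8798 promoters of table genes hold.

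Rgs19: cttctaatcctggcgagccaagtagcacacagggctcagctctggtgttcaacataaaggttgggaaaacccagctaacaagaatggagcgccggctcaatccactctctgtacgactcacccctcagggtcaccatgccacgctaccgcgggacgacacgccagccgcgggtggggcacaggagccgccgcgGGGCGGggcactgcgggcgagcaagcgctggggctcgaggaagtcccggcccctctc

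The other 8 RGS genes were not called by PPEE in the authors' deposited table, and the 3 of them with recovered reads were not called by limma voom. Rgs2, which acts on Gq and in mouse eggs is known to restrain calcium release, was the most abundant, with means of 2595 in vitro and 1965 in vivo and a PPEE of 0.900 listed in the authors' deposited table. Rgs3 had means of 715 in vitro and 799 in vivo. Rgs17, which acts on the inhibitory subunits and Gnaz, had means of 682 in vitro and 482 in vivo and a PPEE of 0.721 listed in the authors' deposited table. Rgs10 and Rgs12 had changes of 0.23 and -0.04 on the log2 scale. Rgs7 and Rgs9 overlapped between the groups in their recovered reads. Rgs22 had 5.51, 3.11 and 3.72 normalised reads in vitro, against 14.6, 12.4 and 7.91 in vivo, with no overlap but an adjusted p of 0.195 by limma voom. With a mean of 4.12 in vitro, Rgs22 could be listed only through its in vivo mean of 11.6.

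Both latrophilins, adhesion receptors that bind teneurins and FLRT proteins on neighbouring cells, had fewer reads in vitro. Lphn2 had 22.1, 22.8 and 22.3 normalised reads in the in vitro libraries A, B and C, against 48.5, 78.8 and 54.2 in the in vivo libraries. The in vitro values, from 24, 22 and 18 whole reads, lay within 1 normalised read of each other. The in vivo values were all more than 2-fold higher. Lphn2 averaged 22.4 ± 0.379 in vitro and 60.5 ± 16.1 in vivo (SD, n = 3 each), and it fell by 1.38 on the log2 scale (SE 0.34, adjusted p = 0.0288 by limma voom), with a PPEE of 9.05e-05 listed in the authors' deposited table. The limma voom call of Lphn2 was kept in 6 of 10 alternative settings, among them the fit without a filter on low reads, which repeated the main fit. The call was lost without in vitro library B or C and without in vivo library A or B, where the adjusted p reached 0.0693, 0.117, 0.0664 and 0.125 by limma voom.

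Lphn3 was close to the detection limit in vitro. It had 4, 0 and 1 whole reads in the in vitro libraries A, B and C, against 13, 10 and 13 in the in vivo libraries, or 3.68, 0 and 1.24 normalised reads against 10.5, 8.86 and 14.7. All in vitro values were below all in vivo values (log2 change -2.83, SE 0.82, adjusted p = 0.0495 by limma voom), while its PPEE was listed at 1 in the authors' deposited table. With a mean of 1.64 in vitro, Lphn3 could be listed only through its in vivo mean of 11.3, so its values are a description and its call is no support for a fall. The adjusted p was between 0.117 and 0.262 by limma voom without any 1 library other than in vitro library A, and 0.0633 with limma trend. Of its 50-base stretches 8.29% also occur in other genes, and an opposite-strand transcript overlaps it.

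The lipid receptors split in direction. Lpar1, a receptor for lysophosphatidic acid, had 51.5, 47.7 and 49.6 normalised reads in the in vitro libraries, against 112, 86.8 and 90.4 in the in vivo libraries. The in vitro values were close together and lay below every in vivo value. Lpar1 averaged 49.6 ± 1.89 in vitro and 96.2 ± 13.4 in vivo (SD, n = 3 each), and it fell by 0.95 on the log2 scale (SE 0.25, adjusted p = 0.039 by limma voom). Its PPEE rounded to 1 in the authors' deposited table, and its limma voom call was lost without any single library other than in vitro library A, with adjusted p between 0.0655 and 0.139. S1pr3, a receptor for sphingosine 1-phosphate, had means of 387 in vitro and 561 in vivo, but a PPEE of 0.883 listed in the authors' deposited table. S1pr2 was near the lower limit with 8.27, 4.15 and 4.96 normalised reads in vitro, against 12.9, 6.2 and 13.6 in vivo, and the groups overlapped. Its in vitro mean was 5.79, so S1pr2 could be listed only through its in vivo mean of 10.9.

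Ptger4, a prostaglandin E2 receptor that couples to the stimulatory G protein, went the other way. It had 9.19, 20.7 and 26.1 normalised reads in the in vitro libraries A, B and C, against 2.43, 3.54 and 6.78 in the in vivo libraries, from 10, 20 and 21 whole reads against 3, 4 and 6. Every in vitro value was above every in vivo value. Its in vitro mean was 4.39-fold its in vivo mean, with a PPEE of 0.00741 listed in the authors' deposited table. With a mean of 4.25 in vivo, Ptger4 could be listed only through its in vitro mean of 18.7, so its call and the size of its fold rest on that selection. With a pseudocount of 10 the log2 change of its means was 1.01 in place of 1.99. By limma voom its log2 change was 2.03 (SE 0.71) with an adjusted p of 0.0878, and 0.0131 without in vitro library A. The granulosa marker Fshr, the receptor for follicle stimulating hormone, had means of 12.4 in vitro and 2.45 in vivo, and Inhba had 60.1 in vitro and 2.69 in vivo. In the in vitro libraries A, B and C, Fshr had 14.7, 17.6 and 4.96 normalised reads and Inhba had 66.2, 57.0 and 57.1. Fshr and Inhba could be listed only through their in vitro means. Of the other markers of that list, Inha had means of 96.6 in vitro and 28.9 in vivo, Hsd17b1 13.0 and 2.85, and Cyp19a1 157 and 110. Hsd17b1 too could be listed only through its in vitro mean. Serpine2 had means of 5350 in vitro and 5169 in vivo. Nr5a2 and Kitl went the other way, with 60.4 in vitro and 76.3 in vivo, and 39.4 in vitro and 42.5 in vivo. The part of granulosa cells in the Ptger4 values was not tested. Of the 50-base stretches of Ptger4, 14.4% also occur in Gm15937 and Ttc33 on the opposite strand.

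**Figure D3:**
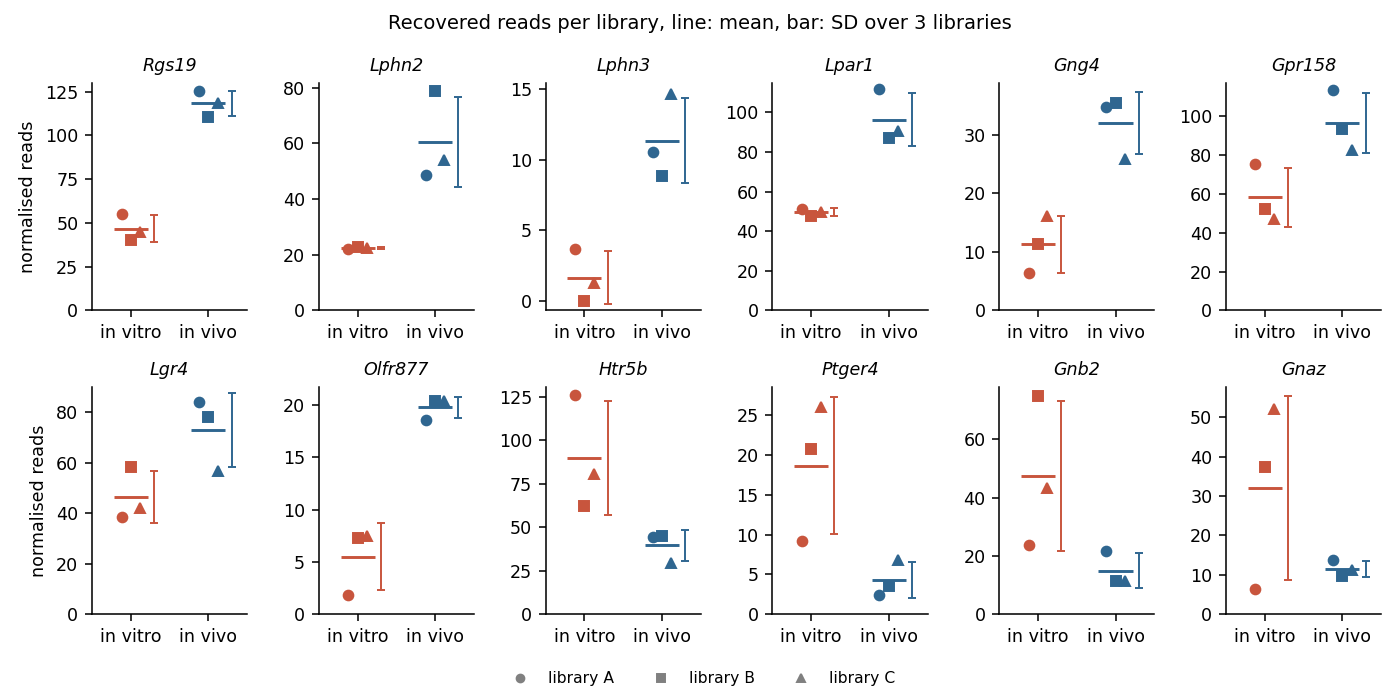
Normalised reads recovered in each library (y axis, linear) for 12 genes named by the rule, with in vitro on the left and in vivo on the right of each panel, the group mean as a line and the SD over 3 libraries as a bar. Rgs19, Lphn2, Lpar1 and Gng4 show groups that lie apart, while Gnaz and Gnb2 show in vitro libraries that spread widely.

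The promoters of Lphn2 and Ptger4 are shown because these genes had the lowest PPEE of the receptors called lower outside the chemosensory group and the largest fold of the receptors called higher. Both are the 250 bases before the annotated start from RefSeq on the minus strand of build GRCm38.p6, at chr3:148954636-148954885 for Lphn2 and at chr15:5244188-5244437 for Ptger4. In Lphn2 capitals mark TGACG, the core of the cAMP response element, and TTTATA, the TATA box letters TATAAA read on the other strand. In Ptger4 capitals mark CCGCCC, the GC box on the other strand, with 2 copies overlapping in the leftmost run.

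Lphn2: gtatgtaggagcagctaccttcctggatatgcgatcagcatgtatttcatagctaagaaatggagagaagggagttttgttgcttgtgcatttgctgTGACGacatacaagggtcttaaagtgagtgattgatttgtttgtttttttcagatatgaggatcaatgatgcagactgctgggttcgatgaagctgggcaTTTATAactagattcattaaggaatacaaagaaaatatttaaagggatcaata

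Ptger4: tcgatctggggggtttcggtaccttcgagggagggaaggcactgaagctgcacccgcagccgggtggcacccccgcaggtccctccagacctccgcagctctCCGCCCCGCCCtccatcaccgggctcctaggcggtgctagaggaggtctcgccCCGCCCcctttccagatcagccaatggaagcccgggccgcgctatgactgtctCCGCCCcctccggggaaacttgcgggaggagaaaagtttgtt

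The core TGACG occurred on either strand in 16.2% of the 74 member promoters given in the RefSeq table and in 27.4% of the 8798 promoters of table genes. The whole element TGACGTCA, which contains that core, occurred in 1 member promoter, that of S1pr2, and in 2.82% of all promoters of table genes. The E box CACGTG occurred in 8.11% of member promoters and 8.68% of all. These are matches of letters in a window, not sites.

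Serotonin receptors made up the amine group together with Adra2b, an alpha-adrenergic receptor. Htr5a, which couples to inhibitory G proteins, had means of 237 in vitro and 169 in vivo, and it rose 1.40-fold in vitro with a PPEE of 5.34e-05 listed in the authors' deposited table. When reads were also recovered for means up to 300, Htr5a had 219, 249 and 243 normalised reads in the in vitro libraries, against 150, 171 and 188 in the in vivo libraries. The groups did not overlap, and the adjusted p was 0.0819 by limma voom over the 6622 genes of that setting (log2 change 0.50, SE 0.17). The in vitro reads of Htr5a are less certain, because 6.50% of shifted in vitro values with means between 200 and 300 also had a solution. Htr5b, its close relative that is functional in rodents, had 126, 62.2 and 80.6 normalised reads in the in vitro libraries A, B and C, against 44.5, 45.2 and 29.4 in the in vivo libraries. All in vitro values were above all in vivo values, with library A far above B and C, and Htr5b rose in vitro (log2 change 1.13, SE 0.32, adjusted p = 0.0477 by limma voom). Its PPEE of 0.0558 listed in the authors' deposited table was just outside the threshold. Its limma voom call was kept in 4 of 10 alternative settings, among them the fit without a filter on low reads, which repeated the main fit. The call was lost with TMM scaling (adjusted p = 0.0536 by limma voom). It was also lost without any single library other than in vitro library B (adjusted p between 0.0721 and 0.128 by limma voom). Htr7, which couples to the stimulatory G protein, had 34.9, 41.5 and 43.4 normalised reads in vitro, against 42.8, 54.0 and 39.5 in vivo, and the groups overlapped. Htr1d and Adra2b, with means between 12.1 and 14.7, also overlapped.

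Frizzled and Lgr receptors carry Wnt and R-spondin signals, and 0 of these 4 genes were called. Fzd3 had 128, 130 and 197 normalised reads in vitro, against 165, 182 and 183 in vivo. Fzd7 had 40.4, 84.0 and 74.4 in vitro, against 39.6, 31.9 and 45.2 in vivo. Both pairs of groups overlapped. Lgr4, a receptor for R-spondins, had 38.6, 58.0 and 42.2 normalised reads in the in vitro libraries, against 84.1, 77.9 and 56.5 in the in vivo libraries. Only the highest in vitro library reached into the in vivo range, and the PPEE of Lgr4 was 0.0670 in the authors' deposited table, with an adjusted p of 0.149 by limma voom. Lgr6, a relative of Lgr4, had 12.9, 15.5 and 14.9 normalised reads in vitro, against 18.6, 10.6 and 12.4 in vivo.

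Among the 26 Gpr genes, 18 had a lower in vitro mean, as had 5330 of the 10896 genes of the table. By PPEE in the authors' deposited table, 1 was called (3.85%, beside 15.1% of all genes). Not every protein with such a symbol is an established receptor: Gpr89 is known as a Golgi pH regulator, and Gpr107, Gpr108, Gpr137 and Gpr155 encode proteins of Golgi or lysosomal membranes. Gpr158, a receptor of neurons that binds Rgs7, had 75.4, 51.8 and 47.1 normalised reads in the in vitro libraries A, B and C, against 113, 93.0 and 82.4 in the in vivo libraries. The groups lay next to each other with no overlap. Gpr158 fell in vitro by its PPEE of 0.0234 listed in the authors' deposited table, and its in vivo mean was 1.66-fold the in vitro mean. By limma voom its log2 change was -0.74 (SE 0.26) with an adjusted p of 0.0949, and 0.028 without in vitro library A. Gpr155 had 222, 106 and 108 normalised reads in vitro, against 253, 261 and 239 in vivo, once means up to 300 were included, and it then fell by limma voom (log2 change -0.85, SE 0.23, adjusted p = 0.0413), with a PPEE of 0.116 listed in the authors' deposited table. In that range of means, whole reads are less certain, because 6.50% of shifted in vitro values and 12.5% of shifted in vivo values also had a solution.

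Abundant Gpr genes did not pass the threshold. Gpr1 had means of 1902 in vitro and 1725 in vivo with a PPEE of 0.853 listed in the authors' deposited table, and Gpr56 had 1000 in vitro and 1092 in vivo with 0.970. Gpr149, known in mice from the oocyte, had means of 387 in vitro and 523 in vivo and a PPEE of 0.227 listed in the authors' deposited table. At the low end, Gpr50, a relative of the melatonin receptors, had 5, 2 and 2 whole reads in vitro, against 20, 15 and 16 in vivo. Its groups did not overlap and its adjusted p was 0.068 by limma voom, although its PPEE was listed at 1 in the authors' deposited table. With a mean of 3.05 in vitro, Gpr50 could be listed only through its in vivo mean of 15.8, so its values are a description. Gpr146 and Gpr180 had changes of 1.33 and 1.01 on the log2 scale in the means, with adjusted p of 0.139 and 0.0864 by limma voom. A further 17 Gpr genes were not called and had log2 changes between -0.46 and 0.80 in the means.

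Of the 17 chemosensory receptors, which detect odours and pheromones in the nose, 15 had a lower in vitro mean, as had 5330 of the 10896 genes of the table. Of the 17, 3 were called lower (17.6%, beside 8.31% of all genes) and 0 higher in the authors' deposited table. Olfr976 stood out by level, with means of 1680 in vitro and 2295 in vivo, and its PPEE was 0.0460 by the authors' deposited table. Only 3.90% of its 50-base stretches occurred in other genes. Olfr288 had means of 504 in vitro and 607 in vivo and a PPEE of 0.0885 listed in the authors' deposited table, but 72.4% of its stretches occur in neighbouring receptor genes or in Gm44579, so its reads could not be assigned with certainty. The remaining 11 Olfr genes had means below 90 normalised reads in both groups. Olfr877, a low one, had 1.84, 7.26 and 7.44 normalised reads in vitro, against 18.6, 20.4 and 20.3 in vivo, with no overlap and an adjusted p of 0.061 by limma voom. With a mean of 5.51 in vitro, Olfr877 could be listed only through its in vivo mean of 19.8.

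The 4 vomeronasal receptors all had lower means in vitro. Vmn1r65 had means of 28.3 in vitro and 78.2 in vivo, and the authors' deposited table lists a PPEE of 4.28e-07, the lowest among the 94 genes. Vmn1r132 had means of 12.6 in vitro and 41.1 in vivo, with 2.09e-05 as the PPEE of the authors' deposited table. All 50-base stretches of Vmn1r132 also occur in other V1R genes, against 3.46% of those of Vmn1r65. Vmn2r51 and Vmn2r25 had in vivo means 1.52-fold and 2.20-fold the in vitro means, and they share 51.7% and 29.7% of their stretches with other genes. None of the 4 vomeronasal means could be solved for whole reads, although they were within the limit, and neither could those of Olfr247 and Olfr819, so no library values stand behind these 6 genes. Adrbk1 was the only gene outside the chemosensory receptors without a solution within the limit.

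The promoter of Olfr976 is shown as that of the most abundant chemosensory receptor. It covers the 250 bases before the annotated start from RefSeq at chr9:39961045-39961294 on the minus strand of build GRCm38.p6, and capitals mark the TATA box letters TATAAA, which occur 5 times in it.

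Olfr976: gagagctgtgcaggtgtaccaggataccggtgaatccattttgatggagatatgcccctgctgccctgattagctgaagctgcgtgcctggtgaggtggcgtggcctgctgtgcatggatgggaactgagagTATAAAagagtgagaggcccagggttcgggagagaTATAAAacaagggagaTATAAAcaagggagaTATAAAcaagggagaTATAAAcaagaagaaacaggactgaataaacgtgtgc

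The letters TATAAA on either strand occurred in 5 of the 14 chemosensory promoters in the RefSeq table (35.7%), in 14.9% of the 74 member promoters and in 6.37% of all 8798. The GC box occurred in 0 of the 14 chemosensory promoters, in 47.3% of the member promoters and in 58.0% of all. CpG content differed between the roles: the observed over expected ratio of CpG had a median of 0.0934 in chemosensory promoters, of 0.925 in the 8 promoters of alpha subunits and of 0.737 in all promoters of table genes. The highest ratio among chemosensory promoters was 0.407, below the overall median.

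**Figure D4:**
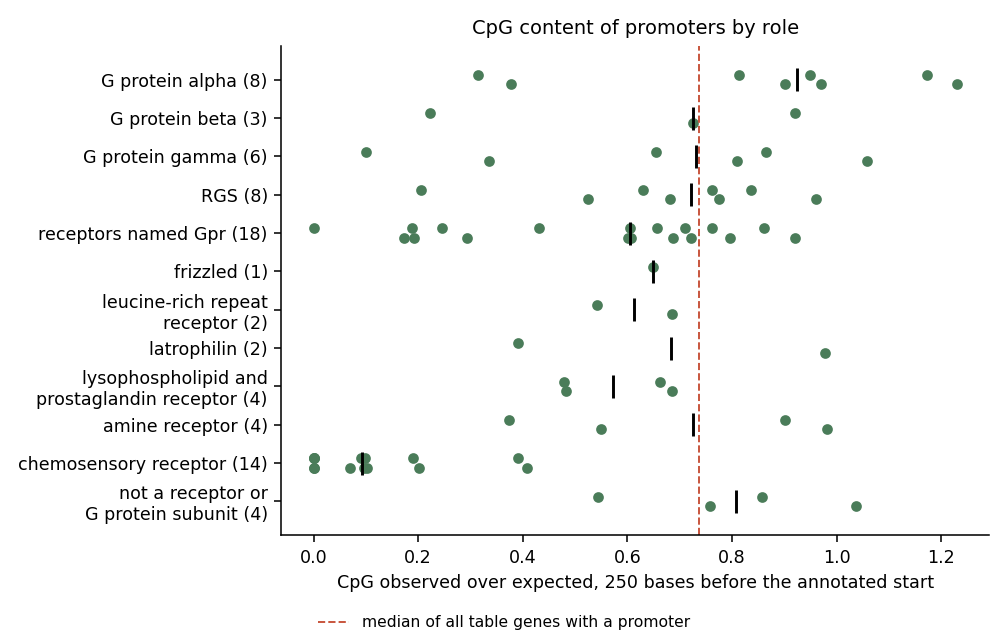
Observed over expected CpG ratio in the 250 bases before the annotated start (x axis, linear) for the 74 genes with a promoter in the RefSeq table, in rows by role, with the median of a role as a short black bar and that of all table genes as a dashed line. All 14 chemosensory promoters lie left of the dashed line at 0.737.

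The 7 genes taken only by their prefix gave 0 calls by PPEE in the authors' deposited table, and Htra1, the only one with recovered reads, was not called by limma voom. Adrm1, a ubiquitin receptor of the proteasome, had means of 1819 in vitro and 1711 in vivo. Gnb2l1, which encodes the ribosomal scaffold RACK1, had means of 448 in vitro and 257 in vivo and a PPEE of 0.353 listed in the authors' deposited table. Gnb1l had means of 277 in vitro and 248 in vivo. Htra1, Htra2 and Htra4 encode serine peptidases and Adrbk1 a receptor kinase, and their changes ranged from -0.39 to 0.46 on the log2 scale.

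PPEE and limma voom named different genes in part. Of the 4 genes called in the authors' deposited table that also had recovered reads, 2 (Rgs19 and Lphn2) were called by limma voom as well. The remaining limma voom calls with lower values, Lphn3, Lpar1 and Gng4, all had a PPEE above 0.99 in the authors' deposited table. In all, 22 of the 94 genes (23.4%) were listed at a PPEE of exactly 1 in the authors' deposited table, beside 14.9% of all genes. These included Lphn3 and Gpr50, with in vivo means 6.93-fold and 5.19-fold the in vitro means. Both could be listed only through their in vivo means, so the size of these folds rests on that selection. The genes just inside the PPEE threshold in the authors' deposited table were Rgs19, Gpr158 and Olfr976 at 0.0105, 0.0234 and 0.0460, and those just outside were Htr5b, Lgr4 and Gna14 at 0.0558, 0.0670 and 0.0882.

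**Figure D5:**
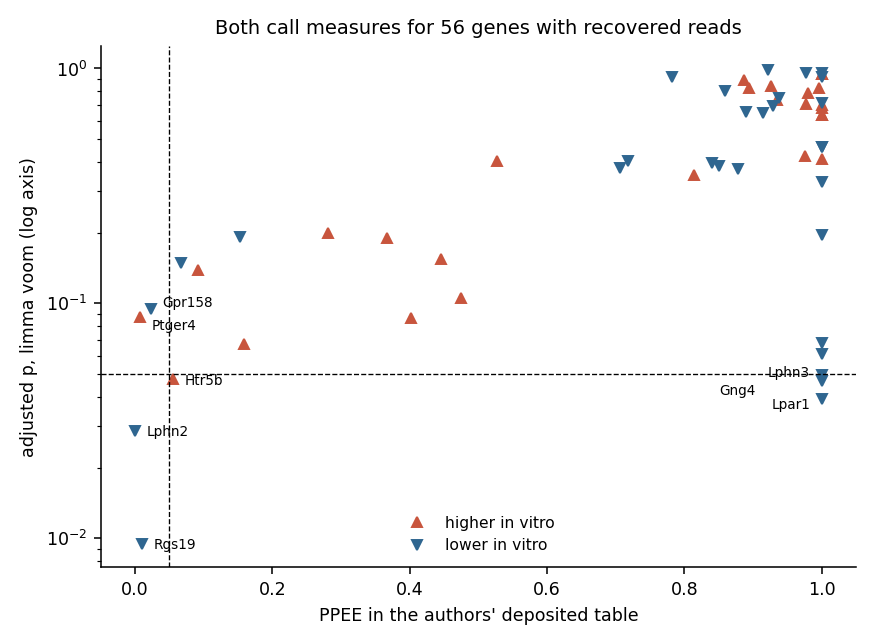
PPEE in the authors' deposited table (x axis, linear) against the adjusted p of limma voom (y axis, log scale) for the 56 genes with recovered reads, with dashed lines at 0.05 on both axes, upward triangles for genes higher in vitro and downward ones for genes lower in vitro. Rgs19 and Lphn2 lie left of the upright line and below the level one, and Lphn3, Gng4 and Lpar1 lie at a PPEE near 1 with an adjusted p below 0.05.

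Behind the receptors, the enzymes and effectors of the pathway were counted from lists of named genes, to be read beside the 6.75% of all genes called higher and the 8.31% called lower. Of 4 adenylyl cyclases, which make cyclic AMP, Adcy9 was called higher 2.42-fold, and Adcy5 lower with means of 243 in vitro and 342 in vivo, at PPEE of 0.0273 and 0.00832 listed in the authors' deposited table. Of 18 genes with the symbol Pde followed by a digit, not all of which need encode such an enzyme, 0 were called higher and 1 lower. This was Pde2a, a phosphodiesterase stimulated by cyclic GMP, with 28.5, 18.7 and 23.6 normalised reads in the in vitro libraries A, B and C, against 108, 56.7 and 63.2 in the in vivo libraries. Pde2a did not overlap between the groups and fell in vitro by both measures (log2 change -1.64, SE 0.36, adjusted p = 0.0201 by limma voom), a call that limma voom did not keep without in vitro library B or C or in vivo library A (adjusted p of 0.0620, 0.0897 and 0.0869). Pde3a, which degrades cyclic AMP in the oocyte, had means of 141 in vitro and 192 in vivo and a PPEE of 0.694 listed in the authors' deposited table.

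Among 19 genes for protein kinase A and its anchors, 0 were called higher and 4 lower in the authors' deposited table. These were the anchors Akap12 and Akap9 and the regulatory subunits Prkar2a and Prkar2b. Akap12 had means of 684 in vitro and 1183 in vivo, and both regulatory subunits had in vivo means between 1.31-fold and 1.32-fold the in vitro means. The regulatory subunit Prkar1a had means of 1455 in vitro and 1479 in vivo and a PPEE of 0.983 listed in the authors' deposited table. Among 6 genes for phospholipase C beta and store release, Plcb3 was called higher by the authors' deposited table with means of 30.9 in vitro and 10.2 in vivo, and 0 were called lower. Of 5 G protein chaperones and exchange factors, Ric8, a chaperone of alpha subunits, was called higher in the authors' deposited table with means of 26.1 in vitro and 9.84 in vivo. By limma voom Adcy9, Plcb3 and Ric8 had adjusted p of 0.0680, 0.0642 and 0.0873. The 4 genes of receptor desensitisation gave 0 calls. Among 14 genes of canonical Wnt signalling, Axin1 was called higher in the authors' deposited table, and Rnf43, a ligase that removes frizzleds from the surface, and Wls, which carries Wnt proteins to the surface, were called lower. Rnf43 had 59.7, 54.9 and 42.2 normalised reads in vitro, against 116, 123 and 87.0 in vivo, without overlap, and fell by limma voom too (log2 change -1.05, SE 0.26, adjusted p = 0.0310). This call of Rnf43 was lost without in vitro library B or C and without in vivo library A or B, where limma voom gave adjusted p between 0.0622 and 0.140.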

How the data were processed

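For 3 samples of oocytes grown in vitro and 3 grown in vivo, the authors deposited a signal for each gene (the group's mean of normalised reads), a log2 ratio, a gene length and a PPEE, which is a score between 0 and 1 (per the file headers). The tool behind the PPEE and the scale factors is not given in the sources used here. Per the labels, a SMARTer low input kit amplified the cDNA of 10 ng of RNA by PCR, and the submitters' processing notes name BWA and build mm9. The authors' deposited log2 ratio has the in vivo mean on top. Here it was recomputed with the in vitro mean on top and the pseudocount of 0.599 that the deposited values imply.

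No column holds a single sample, so a test on deposited sample values could not be made. Whole reads of 3 libraries, each times a step of its own, add up to the group mean. The steps were found from repeated differences among low means, and each mean up to 200 was solved to 10 significant digits. Exactly 1 solution existed for 95.1% of in vitro means in that range and for 95.4% of in vivo means, and several for 0%. Shifted values had a solution in 0.933% of in vitro and 0.800% of in vivo cases, and in 3.43% and 2.86% of those with means over 100. The sums of normalised reads at low means lay between 0.960 and 1.06 times the group average, which the solving does not impose. In vitro libraries A, B and C had size factors of 1.09, 0.965 and 0.806, and in vivo libraries 1.24, 1.13 and 0.885. The steps were tested on simulated data. The SE and p of limma voom rest on the spread between the libraries within each group. Reads carry no molecular identifiers, so copies made by PCR were counted as reads.

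limma 3.58.1 (voom) in R 4.3.3 was fitted to genes with at least 10 reads over 6 libraries, with library sizes from the authors' scaling. TMM factors were computed from their published definition. Shared sequence was counted as 50-base stretches of GENCODE M21 transcripts found in another gene, for the 92 genes matched by Entrez gene ID, of which 13 shared over 20%. Promoters came from the RefSeq table of GRCm38.p6 and matched 74 of the 94 genes. Gene coordinates are not given, since that build differs from mm9.

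The genes, lists and markers were chosen with earlier results of these data known. Named were all called genes, the 3 most abundant of each role, the 8 largest changes with a mean of at least 10, the genes next to the PPEE threshold and the called genes of the pathway lists with Pde3a and Prkar1a. The other genes named by their values were chosen after the values were seen. Of the genes that the rule names, 1 is not reported here.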

Additional observations from a re-analysis of the deposited data

How the results depend on the processing

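No paired analysis was possible because the deposited columns are group means and the recovered libraries carry no replicate numbers. The median and the changes of 12 genes in recovered reads kept their sign under the alternatives run. For the 9 genes called by PPEE only the pseudocount of the means was varied, which cannot change a sign, so this is no check of their direction. The median log2 change of the 94 genes lay between -0.13 and -0.09 over its alternatives. Asking for at least 1.5-fold left 1 gene called higher in the authors' deposited table in place of 3, and a PPEE below 0.01 left 3 called lower in place of 6. In the recovered reads, TMM scaling gave 0 genes called higher in place of 1, and limma trend gave 2, with a prior count of 1. Leaving out 1 library gave between 0 and 6 genes called higher and between 0 and 5 called lower.

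The libraries moved the calls over all recovered genes as well, which were 202 higher and 165 lower with all 6 libraries. Without in vitro library A they were 712 and 320. Without in vitro library B they were 55 and 38, without in vitro library C 16 and 13, without in vivo library A 10 and 20, without in vivo library B 14 and 30, and without in vivo library C 109 and 112. limma trend gave 310 and 226. Means up to 200 limit the recovered reads to the less abundant genes, so Gng3, Olfr976 and the other abundant genes have no value per library. For the 12 named genes with recovered reads, 85 of 120 limma voom results under an alternative stayed on the same side of the threshold, 29 lost a call and 6 gained a call. The alternative without a filter on low reads gave the same values as the main fit, so its results could only stay. Among these 12 genes, limma voom called Rgs19 in 8 of its 10 alternatives and Lphn2 in 6. Leaving out genes that share over 20% of their stretches and recovering means up to 300 were added after seeing the data, as were other pseudocounts.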
